A study of Rattus norvegicus with 6 samples.

Results

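The natural killer cell receptors described here are 10 genes of the killer lectin-like and activating receptor families, chosen by name: Klrb1a, Klrb1b, Klrc1, Klrc2, Klrd1, Klre1, Klrg1, Klrk1, Ncr1 and Fcgr3a. Each had 1 probe set, so 10 of the 31042 probe sets tested, and 10 of the 14217 genes with a probe set of a single symbol, are reported. Expression was measured on Affymetrix arrays in rat metrial gland, the part of the pregnant uterine wall behind the placenta. Arrays of 3 samples came from pregnant rats held at 10.5% oxygen (hypoxia), starting on gestation day 6.5 and ending on day 13.5, and 3 came from pregnant rats held at 21% oxygen (ambient) over the same days. Tissue was taken at the end of the exposure. The sources used here give neither the rat strain nor whether the samples of a group came from separate animals. The p-values therefore rest on a spread between samples that may be technical.

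Natural killer cells weigh signals from activating and inhibitory surface receptors against each other. The killer lectin-like receptors, encoded together in the natural killer gene complex, include both kinds, and several work only with a partner chain. Most activating receptors have no signalling tail of their own and pass the signal through small adaptors such as DAP10, DAP12 and the Fc receptor gamma chain. Inhibitory receptors recruit phosphatases. In the rat metrial gland, uterine natural killer cells gather around the maternal arteries that feed the placenta.

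Values are the authors' log2 expression summaries, so a difference of 1 is a doubling. Differences are hypoxia minus ambient. They come from limma with Benjamini-Hochberg adjustment over all 31042 probe sets, and n is 3 arrays per group throughout. As a guide to background, the highest of the 27 probe sets for bacterial transcripts, taken per array, lay between 4.81 and 5.003. Of the 10 receptors, 7 lay above that ceiling on all 6 arrays (Klrb1a, Klrk1, Ncr1, Fcgr3a, Klrc1, Klrg1 and Klrd1), Klrc2 on some of them, and Klrb1b and Klre1 on none. Levels of different probe sets are not set against each other, because each probe set binds with its own strength. Probe sets of close relatives such as Klrb1a and Klrb1b, or Klrc1 and Klrc2, may bind each other's transcripts, so values of single members are uncertain.

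None of the 10 receptors passed an adjusted p of 0.05 in either direction. Over all probe sets 1.12% were called lower and 2.34% higher. At an unadjusted p under 0.05, 3 receptors were lower (Klrg1, Klrk1 and Klrc1), against 9.85% of all probe sets, and 1 was higher (Klrd1), against 9.45%. The same 3 had groups that did not overlap, lower in hypoxia, which held for 13.7% of all probe sets. In the other direction, with every hypoxia array above every ambient array, there were 0 receptors and 11.6% of all probe sets. The median difference of the 10 was -0.0026, and that of all probe sets -0.019. In whole tissue, fewer natural killer cells and less RNA per cell cannot be told apart.

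**Figure D1:**
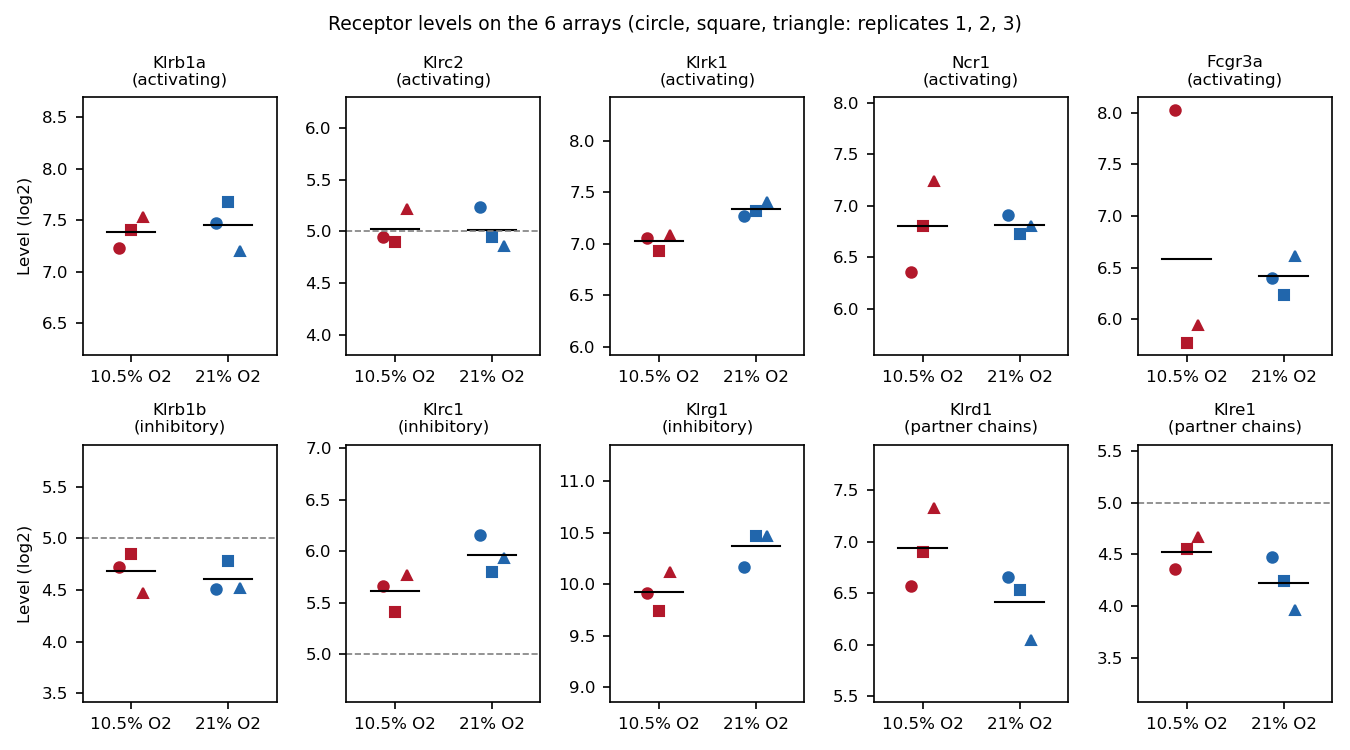
Level of each receptor (log2, y axis, all panels spanning the same range) on the 3 hypoxia (10.5% oxygen, red) and 3 ambient (21% oxygen, blue) arrays, with the group mean as a bar. The dashed line is the highest bacterial control on any array (5.003). Klrk1, Klrc1 and Klrg1 have groups that do not overlap, and Fcgr3a has 1 hypoxia array at 8.03.

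Among activating receptors, Klrk1 (NKG2D), which binds stress-induced relatives of MHC class I and signals through DAP10, had the smallest spread. It stood at 7.06, 6.93 and 7.09 in hypoxia, against 7.27, 7.32 and 7.41 in ambient. Every hypoxia array lay below every ambient array. The difference was -0.30 (SE 0.09, 95% interval -0.50 to -0.11), with a limma adjusted p of 0.100, and it did not pass under any of the alternatives run (adjusted p from 0.0731 to 0.266).

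Klrb1a (NKR-P1A), the receptor by which rat natural killer cells are commonly recognised, stood at 7.23, 7.40 and 7.53 in hypoxia, against 7.47, 7.68 and 7.20 in ambient. The groups overlapped, with a difference of -0.06 (95% interval -0.36 to 0.24, limma adjusted p = 0.839). Ncr1 (NKp46), a natural cytotoxicity receptor that signals through the Fc receptor gamma and CD3 zeta chains, stood at 6.36, 6.80 and 7.24 in hypoxia, against 6.91, 6.73 and 6.80 in ambient. Its hypoxia arrays lay on both sides of the ambient ones, with an SD of 0.44 in hypoxia and 0.093 in ambient, and a difference of -0.012 (95% interval -0.44 to 0.42, limma adjusted p = 0.982). Klrc2, annotated in RefSeq also as Nkg2E and rNKG2C, is an activating chain that pairs with CD94. It stood at 4.95, 4.90 and 5.22 in hypoxia, against 5.24, 4.95 and 4.86 in ambient. Its values lay around the bacterial ceiling, above it on 2 of 3 arrays of each group, and differed by 0.0071 (95% interval -0.28 to 0.29, limma adjusted p = 0.985).

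Fcgr3a (CD16) binds the constant part of IgG and triggers killing of antibody-coated cells. RefSeq lists CD16-2 and Fcgr4 as other names of this rat gene, and in the mouse Fcgr4 is found on monocytes, macrophages and neutrophils. It stood at 8.03, 5.77 and 5.94 in hypoxia, against 6.40, 6.23 and 6.61 in ambient. Hypoxia replicate 1 was the highest of the 6 arrays, while the other hypoxia arrays lay below every ambient one. The difference was 0.17 (95% interval -0.96 to 1.30, limma adjusted p = 0.884), and without hypoxia replicate 1 it turned to -0.55 (adjusted p = 0.100). On that array Fcgr3a exceeded the mean of the other hypoxia arrays by 2.18. Of 13 macrophage and neutrophil markers, 9 were also highest there among the hypoxia arrays, with a median excess of 0.21 and at most 0.47 (S100a8), and their part in the Fcgr3a value was not tested.

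Inhibitory receptors included the receptor with the smallest p. Klrg1 binds classical cadherins on neighbouring cells and was first described on rat mast cells, hence its RefSeq synonym MAFA. It stood at 9.92, 9.74 and 10.12 in hypoxia, against 10.17, 10.47 and 10.47 in ambient. The groups did not overlap, although hypoxia replicate 3 and ambient replicate 1 lay close together. Klrg1 was 1.36-fold lower in hypoxia, a difference of -0.44 (SE 0.11, 95% interval -0.70 to -0.18) that missed the threshold at a limma adjusted p of 0.0742. With 1 array left out, it passed only without hypoxia replicate 3 (difference -0.54, adjusted p = 0.0403; range over all alternatives 0.0403 to 0.222).

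Klrc1 (NKG2A) pairs with CD94 and recognises nonclassical MHC class I, Qa-1 in the mouse and HLA-E in humans. It stood at 5.66, 5.41 and 5.77 in hypoxia, against 6.16, 5.80 and 5.94 in ambient. The highest hypoxia array lay just under the lowest ambient array. The difference was -0.36 (SE 0.13, 95% interval -0.65 to -0.065), with a limma adjusted p of 0.174. Klrb1b (NKR-P1B), the inhibitory relative of Klrb1a that binds C-type lectin-related ligands, was at or below the bacterial ceiling on all 6 arrays, at 4.72, 4.85 and 4.47 in hypoxia and 4.51, 4.78 and 4.52 in ambient. Its level has only an upper bound in both groups, so no fold is given and its measured difference has no readable direction.

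The partner chains were Klrd1 and Klre1. Klrd1 (CD94), without which neither NKG2A nor NKG2C reaches the cell surface as a working receptor, stood at 6.57, 6.90 and 7.33 in hypoxia, against 6.66, 6.53 and 6.05 in ambient. Hypoxia replicates 2 and 3 exceeded every ambient array, while hypoxia replicate 1 lay below ambient replicate 1. The difference was 0.52 (SE 0.21, 95% interval 0.053 to 0.99), with a limma adjusted p of 0.212, and it stayed positive and short of the threshold under every alternative run. Klre1, which in the rat forms an inhibitory receptor with Klri1 and an activating one with Klri2, stood at 4.36, 4.55 and 4.67 in hypoxia and 4.48, 4.24 and 3.96 in ambient. These values were at or below the bacterial ceiling on all 6 arrays, so its direction is not read.

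**Figure D2:**
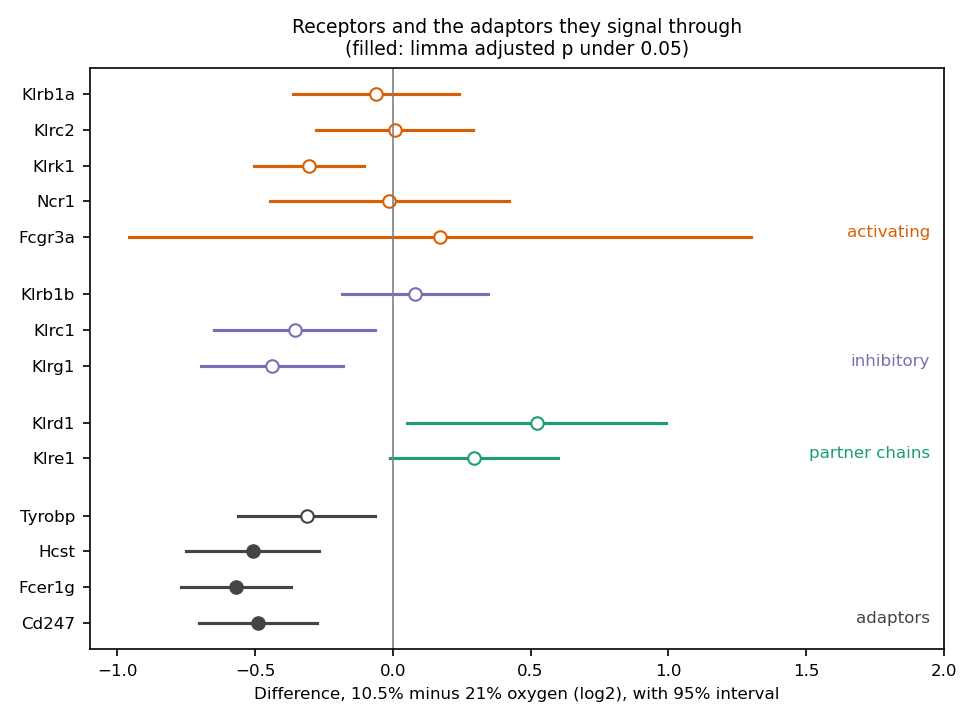
Difference between 10.5% and 21% oxygen (log2, x axis) with its 95% interval for the 10 receptors, by role, and for 4 adaptors. Open symbols did not pass a limma adjusted p of 0.05. The points of Klrb1b and Klre1 come from signals at background. All 10 receptors are open, while Hcst, Fcer1g and Cd247 are filled and lie between -0.57 and -0.49.

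NKG2A and CD94 form 1 receptor, so their deviations from their own ambient means were set against each other within each array, which cancels any difference in scale between arrays. Klrc1 minus Klrd1 was -0.47, -1.05 and -1.12 in hypoxia, against -0.049, -0.28 and 0.33 in ambient. All 3 hypoxia arrays lay below all ambient arrays, with a mean of -0.88 in hypoxia (SD 0.36 in hypoxia and 0.31 in ambient) that ranged from -1.09 to -0.71 with any 1 array left out. For Klrc2 minus Klrd1 the values were -0.23, -0.61 and -0.71 in hypoxia, against -0.025, -0.18 and 0.21 in ambient, with Klrc2 near background. Klrb1a was not set against Klrb1b, because Klrb1b was at or below the bacterial ceiling on every array. Chains that do not pair with each other separated as well. Klrd1 minus Klrk1 had a mean of 0.83 in hypoxia and Klrc1 minus Klrc2 a mean of -0.36, both without overlap between groups. The separation was thus not particular to NKG2A and CD94, and Klrc1 alone already had groups that did not overlap. These differences are descriptions, with no test, and how often pairs of other probe sets separate was not counted.

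**Figure D3:**
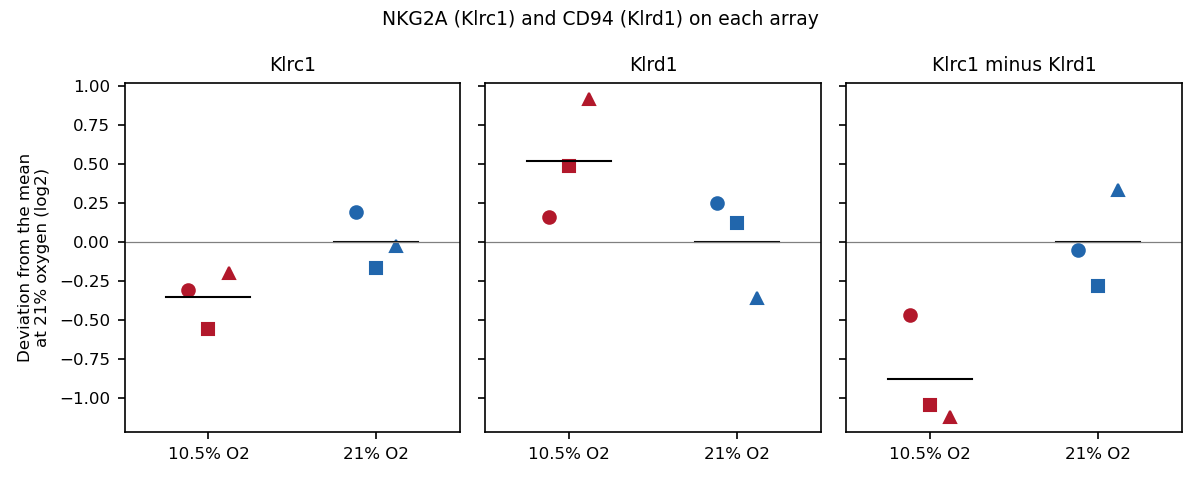
Deviation of Klrc1 (NKG2A), of Klrd1 (CD94) and of their difference from the mean at 21% oxygen (log2, y axis) on the 3 hypoxia (red) and 3 ambient (blue) arrays, replicates 1, 2 and 3 as circle, square and triangle, bars marking group means. The difference between both chains is below every ambient array on all 3 hypoxia arrays, and Klrd1 alone overlaps.

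Taking the receptors by role, the mean deviation of the 5 activating members was 0.12, -0.24 and 0.0012 in hypoxia, against 0.053, -0.024 and -0.029 in ambient. That of the 3 inhibitory members was -0.21, -0.31 and -0.19 in hypoxia, against -0.031, 0.036 and -0.0048 in ambient. The inhibitory mean was thus below every ambient array on all hypoxia arrays, and the activating mean was not. Without Fcgr3a the activating mean was -0.25, -0.15 and 0.12 in hypoxia, against 0.070, 0.015 and -0.085 in ambient. Hypoxia replicate 1, the highest of the hypoxia arrays with Fcgr3a, was the lowest without it. With Fcgr3a kept, activating minus inhibitory was 0.33, 0.067 and 0.19 in hypoxia, against 0.084, -0.060 and -0.024 in ambient. The groups overlapped at hypoxia replicate 2, and the value of hypoxia replicate 1 rests on Fcgr3a. The mean difference of 0.20 became 0.15 without Fcgr3a, an alternative chosen after seeing the data, and 0.36 without Klrb1b, the member at background. No test was made over the members, and the inhibitory mean rests on Klrc1 and Klrg1.

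According to the order of genes in RefSeq (assembly GRCr8), Klre1, Klrd1, Klrk1, Klrc2 and Klrc1 follow each other in this order on chromosome 4, with 1 other protein-coding gene among them, between Klrk1 and Klrc2. Klrb1a and Klrb1b are direct neighbours elsewhere on chromosome 4, Klrg1 lies apart on the same chromosome, and Ncr1 is on chromosome 1 and Fcgr3a on chromosome 13. Of the direct neighbours, Klrd1 differed by 0.52 and Klrk1 by -0.30, while Klre1, on the other side of Klrd1, was at background. RefSeq promoter sequences (GRCr8, 250 bases before to 50 after the start) were matched for 7 of the 10 members, all but Klrd1, Klrg1 and Ncr1. Those of Klrk1 and Klrc1, the matched members with groups that did not overlap, and of Klrc2, which lies between them, are shown 5′ to 3′ in the direction of the gene. Capitals mark the T-box half-site GTGTGA, the RUNX motif TGTGGT and the hypoxia response core ACGTG on either strand. T-box and RUNX factors act in natural killer cell development, and the hypoxia response core is bound by hypoxia-inducible factors.
Klrk1 (chr4:164778333-164778632, minus strand): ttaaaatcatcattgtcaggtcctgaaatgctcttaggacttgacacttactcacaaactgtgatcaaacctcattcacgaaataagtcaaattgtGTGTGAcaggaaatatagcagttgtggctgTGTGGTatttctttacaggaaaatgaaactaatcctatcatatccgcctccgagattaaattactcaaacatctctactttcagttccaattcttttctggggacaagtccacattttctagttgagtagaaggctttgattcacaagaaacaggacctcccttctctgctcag
Klrc1 (chr4:164838397-164838696, minus strand): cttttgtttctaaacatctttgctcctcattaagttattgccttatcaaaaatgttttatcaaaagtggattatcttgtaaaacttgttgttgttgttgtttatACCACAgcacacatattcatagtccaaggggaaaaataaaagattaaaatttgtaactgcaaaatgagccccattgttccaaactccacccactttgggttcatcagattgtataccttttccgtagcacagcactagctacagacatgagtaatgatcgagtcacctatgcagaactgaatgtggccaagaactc
Klrc2 (chr4:164819816-164820115, minus strand): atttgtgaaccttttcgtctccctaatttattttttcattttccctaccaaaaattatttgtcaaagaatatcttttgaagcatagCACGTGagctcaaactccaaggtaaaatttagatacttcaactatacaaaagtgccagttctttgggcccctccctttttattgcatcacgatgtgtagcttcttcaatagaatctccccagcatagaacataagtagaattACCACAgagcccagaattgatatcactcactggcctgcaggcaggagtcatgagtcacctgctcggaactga
Klrk1 held 1 T-box half-site and 1 RUNX motif, and Klrc1 held 1 RUNX motif, with no hypoxia response core in either window. Klrc2 held 1 RUNX motif and a palindrome that reads as the hypoxia response core on both strands. Over the 7 promoters, 3 held the T-box half-site, 4 the RUNX motif and 2 the hypoxia response core, against 13.7%, 17.3% and 19.3% of the 33469 promoters in the table. Promoters of close relatives are not independent. The T-box half-sites of Klrb1a and Klrb1b, 151 and 147 bases upstream, lie in a stretch of letters that both genes share. Whether the motifs are enriched in these promoters was not tested. The marked motifs do not overlap each other except for both readings of that palindrome. A match describes letters in these windows and shows no binding.

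Transcripts of several genes on a list of receptor adaptors and signalling proteins fell. Not all of these genes serve the receptors described here, since Sh2d1a is the adaptor of SLAM family receptors. Which cells of the tissue carried these transcripts was not tested. Of 26 on the list, 23 were on the array, and 5 of these fell, 0 rose and 18 did not pass. The median difference was -0.36. The 5 made up 21.7% of the list's measured genes, against the 1.12% of all probe sets called lower. These shares have unlike bases, because the list takes the highest probe set of each gene and all probe sets include those at background. With the lowest 60% of probe sets left out, 6 of 20 list genes were called lower, against 353 of 12417 probe sets. Fcer1g, the Fc receptor gamma chain used by Ncr1, Klrb1a and CD16, stood at 11.87, 11.98 and 11.86 in hypoxia, against 12.30, 12.44 and 12.67 in ambient, without overlap. It fell by 0.57 (SE 0.09, limma adjusted p = 0.0135) and passed under every alternative run, with adjusted p up to 0.0494.

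Cd247, the CD3 zeta chain that natural killer cells share with T cells, fell by 0.49 (SE 0.09, limma adjusted p = 0.0304), while its other probe set, at -0.52, missed the threshold. Pik3cd, a catalytic subunit of phosphoinositide 3-kinase in leukocytes, fell by 0.46 (SE 0.08, limma adjusted p = 0.0266), while its other probe set, at -0.16, missed the threshold. Sh2d1a (SAP), the adaptor of SLAM family receptors, fell by 0.46 (SE 0.09, limma adjusted p = 0.0338). Hcst (DAP10), the adaptor of NKG2D, was singled out after its value was seen. It stood at 8.57, 8.67 and 8.74 in hypoxia, against 9.40, 9.07 and 9.03 in ambient, and fell by 0.51 (SE 0.11, limma adjusted p = 0.0398). Tyrobp (DAP12), the adaptor of NKG2C, likewise named after its value was seen, differed by -0.31 (SE 0.11) with a limma adjusted p of 0.162. Within arrays, receptors were set against their adaptors for 6 pairs, of which 5 overlapped between groups. How often pairs of other probe sets overlap was not counted, so no background share is given. Klrk1 minus Hcst, one of the 5, was 0.33, 0.10 and 0.18 in hypoxia and -0.29, 0.078 and 0.21 in ambient. The pair without overlap was Klrb1a minus Fcer1g, at 0.38, 0.45 and 0.70 in hypoxia and 0.19, 0.26 and -0.45 in ambient, again with no test. Of this pair, Fcer1g alone already had groups without overlap (-0.57), while Klrb1a overlapped and differed by -0.06. The pair thus adds little to the fall of Fcer1g. The count of 5 dropped to 1, Fcer1g, without any 1 array other than hypoxia replicate 3, and was 6 without that one. Hcst lost its call without hypoxia replicate 3 as well, and with no variance trend. Over all probe sets, the 347 calls as lower also dropped, to between 53 and 153, without any 1 array other than hypoxia replicate 3. They were 368 without that one.

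Other killer cell receptors and coreceptors had 10 of 42 listed genes on the array under a single symbol, many Ly49 genes being without such a probe set. All 10 had a negative measured difference, against 55.4% of all probe sets, and their median was -0.43, but Klrh1 was at background on all arrays, so its sign is not read. Of these, 1 passed, as lower, against 1.12% of all probe sets called lower. Cd96, a receptor of the nectin-binding group, stood at 9.70, 9.56 and 9.68 in hypoxia, against 9.93, 10.13 and 10.35 in ambient. It fell by 0.49 (SE 0.10, limma adjusted p = 0.0416), a call lost without any 1 array other than ambient replicate 1 and with no variance trend (adjusted p up to 0.115).

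Receptor ligands had 11 of 23 listed genes on the array, of which 1 fell, 0 rose and 10 did not pass, with a median of -0.059. Of all probe sets, 1.12% were called lower and 2.34% higher, again on an unlike base. The ligand counts take 1 probe set per gene. Cdh2 differed by -0.0014 there, but of its other probe sets 1 passed as higher and 1 did not pass. Nectin2 differed by 0.29 (limma adjusted p = 0.0594), and of its other probe sets 1 passed as higher and 1 did not pass. Its counted probe set passed as higher with the lowest 40% or 60% of probe sets left out, and with array weights. No listed ligand of NKG2D had a probe set with a single symbol. The ligand that fell was Cdh1, E-cadherin, an epithelial adhesion protein that Klrg1 binds. It stood at 6.62, 5.59 and 6.00 in hypoxia, against 7.36, 6.83 and 7.21 in ambient, and fell by 1.07 (SE 0.24, limma adjusted p = 0.0491), with 0.03 at a second probe set near background. That call was lost without any 1 array other than hypoxia replicate 1, and under the settings without a variance trend, with a robust one or with array weights (adjusted p up to 0.160).

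**Figure D4:**
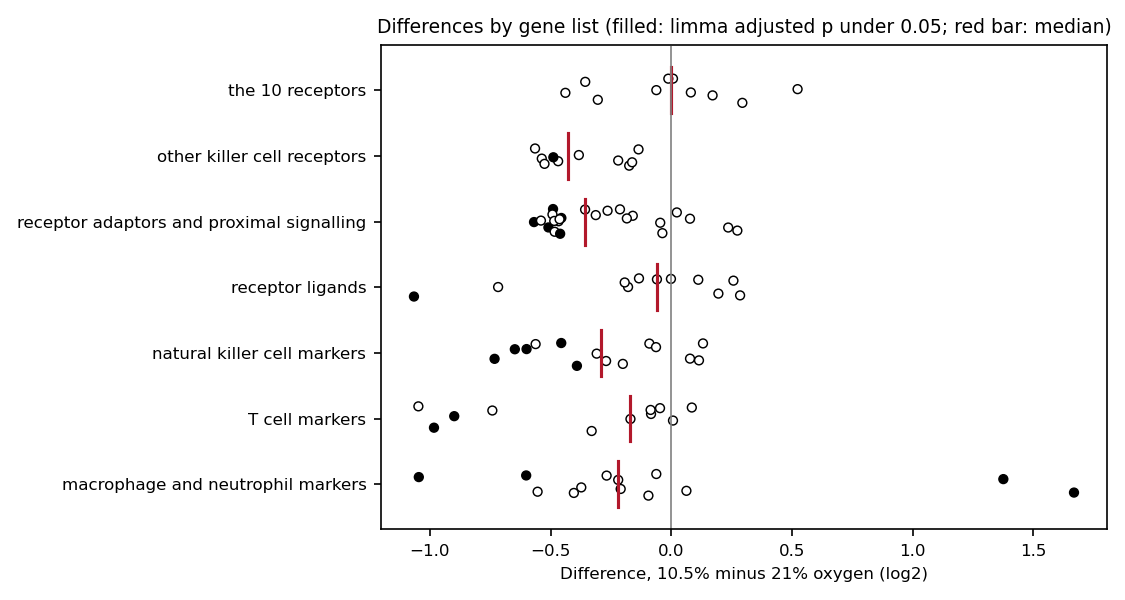
Difference between 10.5% and 21% oxygen (log2, x axis) of each measured gene by list, 1 probe set a gene, with the list median as a red bar. Filled points passed a limma adjusted p of 0.05. The receptors spread on both sides of 0 with no filled point, while the other killer cell receptors, with Klrh1 at background, are all below 0 and 5 adaptor genes are filled.

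Markers of the cells that can carry these receptors were counted as well. For these lists and those below, the shares over all probe sets were 1.12% called lower and 2.34% called higher. As for the adaptors, those shares have an unlike base, because each list takes the highest probe set of each gene. Of 14 natural killer cell markers, 5 fell, 0 rose and 9 did not pass, with a median of -0.29. Cst7, a protease inhibitor of killer cell granules, fell by 0.73, Il2rb, the receptor chain for interleukins 2 and 15, by 0.60, Nkg7, a granule membrane protein, by 0.46 and Eomes, a T-box factor, by 0.39 (a second probe set, -0.26, did not pass; limma adjusted p from 0.0111 to 0.0187). Each of these calls was lost without at least 1 of the arrays (adjusted p up to 0.0690). The fifth, named after its value was seen, was Id2, a regulator of innate lymphocytes, which fell by 0.65 (limma adjusted p = 0.0275; a second probe set, -0.52, did not pass) and lost its call without any 1 ambient array or hypoxia replicate 1. Leaving out ambient replicate 2 brought the count of 5 to 3, and leaving out either ambient replicate 3 or hypoxia replicate 1 brought it to 1. The summed linear level of the list lay between 49665 and 54011 in hypoxia and between 62177 and 68636 in ambient, with Gzma and Ifng at background on all arrays. Such sums, here and for the lists below, weigh the genes with the highest values most and show no shift of a whole list. Highest here were Gzmb and Prf1, which did not pass (limma adjusted p = 0.0961 and 0.121).

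T cells can carry Klrk1 and Klrg1. Of 11 T cell markers, 2 fell (Cd3g by 0.98 and Cd8a by 0.90; limma adjusted p = 0.0366 and 0.0360), 0 rose and 9 did not pass. The call of Cd3g was lost without any 1 of ambient replicates 1 and 3 and hypoxia replicates 1 and 2, and that of Cd8a without any 1 of ambient replicates 1 and 2 and hypoxia replicates 1 and 2. Of the other Cd8a probe sets, 1 passed and 1 did not. Their summed linear level was 551 to 715 in hypoxia and 846 to 1144 in ambient, with Cd28 and Trat1 at background. The macrophage and neutrophil list had 2 falls, 2 rises and 9 members that did not pass among 13, with sums of 5558 to 6225 in hypoxia and 5646 to 6385 in ambient. Cd163 fell by 1.05 and Itgam by 0.60, while S100a8 rose by 1.38 and S100a9 by 1.67 (limma adjusted p from 0.0020 to 0.0246). The call of Itgam was lost without any 1 of ambient replicates 2 and 3 and hypoxia replicates 1 and 2. Mast cell markers, a list added after seeing the data, had 1 rise (Kit, by 1.43, limma adjusted p = 0.0199, a call lost on leaving out hypoxia replicate 1 or either of ambient replicates 2 and 3) and 10 that did not pass among 11, with sums of 1300 to 2303 in hypoxia and 1333 to 1973 in ambient and Fcer1a, Mcpt4 and Hdc at background. Trophoblast markers rose in 9 of 12, against 2.34% of all probe sets called higher, and in 6 without hypoxia replicate 1. Their sums were 14859 to 19433 in hypoxia and 2951 to 7126 in ambient. Endothelial markers rose in 5 of 8, and in 3 without any 1 of ambient replicates 2 and 3 and hypoxia replicates 1 and 2. Their sums were 8442 to 9007 in hypoxia and 6964 to 7438 in ambient. Decidual stroma markers rose in 2 of 9, and in 1 without any 1 of ambient replicates 2 and 3 and hypoxia replicate 1, or in 3 without hypoxia replicate 2. Their sums were 79832 to 91334 in hypoxia and 73523 to 78938 in ambient. The 3' minus 5' signal of beta-actin was 0.58 to 0.77 in hypoxia and 0.41 to 0.54 in ambient, without overlap, and that of GAPDH was -0.040 to 0.057 in hypoxia and -0.047 to -0.0077 in ambient, with overlap. The part of these shifts in the receptor values was not tested.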

How the data were processed

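Total RNA (6 ug) was labelled as biotin cRNA and hybridised to single-channel Affymetrix arrays, per the labels' protocols. The deposited values are log2 summaries, 1 per probe set and array; the log2 scale was read from their range (2.98 to 14.9). MAS5 and Affymetrix Expression Console are named, without role, per the submitters' processing notes; the sources used here do not give the background correction, summarization and scaling, and a scaling that equalises arrays would hide a change of most genes. Array medians lay between 6.44 and 6.47. Correlations were 0.995 to 0.997 within groups and 0.989 to 0.993 between groups.

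Of 31099 probe sets, 57 controls were left out. No filter on low means was applied, so that every receptor was tested; 7 of the 10 would pass one that leaves out the lowest 40%. R 4.3.3 with limma 3.58.1 was used (lmFit, eBayes with a variance trend, group as the only term, two-sided), at an adjusted p of 0.05, and was tested on simulated data. Genes come from the platform annotation, and all 10 identifiers matched RefSeq (GRCr8). For other genes the probe set with the highest mean was used. Named were all members and, per list, up to 4 genes past the threshold by smallest p. Outside this rule, Hcst, Tyrobp, Id2, Cdh2, Nectin2, Gzmb and Prf1 were named with their values known, as were list genes at background. Called genes of the trophoblast, endothelial and decidual stroma lists are given as counts only. The members and lists were chosen with earlier results of these data known. Alternatives were filters, scalings, an offset of 64, variance models, array weights, a replicate block and leaving out each array. Precision is limited by the number of arrays. Same-numbered arrays of both groups did not deviate together (r from -0.026 to 0.058), so numbers were not taken as pairs.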

Additional observations from a re-analysis of the deposited data

How the results depend on the processing

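Of the receptors, 0 were called lower and 0 higher. With 1 array left out, 0 to 1 were called lower (Klrg1, without hypoxia replicate 3) and 0 higher. The replicate block called 1 lower, Klrg1 (adjusted p = 0.0446). Klrk1, Klrc1, Klrg1 and Klrd1 kept their sign under every alternative run. Values near 0 changed sign as follows. Klrb1a was 0.053 without ambient replicate 2 and 0.018 without hypoxia replicate 1, over a range with 1 array left out from -0.19 to 0.053. Klrc2 was -0.026, -0.070 and -0.093 without ambient replicate 2, ambient replicate 3 and hypoxia replicate 3 (range -0.093 to 0.12). Ncr1 was 0.0021 with an offset of 64, 0.037 without ambient replicate 1 and 0.21 without hypoxia replicate 1 (range -0.23 to 0.21). Fcgr3a was -0.55 without hypoxia replicate 1 (range -0.55 to 0.58), and Klrb1b -0.0038 without hypoxia replicate 2 (range -0.0038 to 0.18), a gene at background whose sign is not read. The cause was not tested. Activating minus inhibitory was 0.36 with the gene at background left out, and 0.13 to 0.26 with 1 array left out. With 1 array left out, Klrc1 minus Klrd1 was -1.09 to -0.71 and Klrc2 minus Klrd1 -0.66 to -0.41. Over all probe sets 347 were lower and 726 higher. These counts were 556 and 870 with the replicate block, and 53 to 368 and 257 to 708 with 1 array left out. The adaptor and signalling count of 5 was 11 with the replicate block and 1 to 6 with 1 array left out. Signals at the bacterial ceiling (Klrb1b, Klre1 and in part Klrc2) limit what can be said of those genes.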

Other observations

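Fcgr3a on hypoxia replicate 1 lay 1.43 above the next highest of the 6 arrays. A gap of at least that size above the other arrays was seen for 5 probe sets on hypoxia replicate 1, for 5 on hypoxia replicate 3 and for 0 on each of the other arrays. On hypoxia replicate 1 the others with a gene symbol were, named after their values were seen, Pgbd5, Prss35, Resp18 and Syt4.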
